A study of Mus musculus with 36 samples.

Results

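Centromere and kinetochore proteins were followed through 35 genes, chosen by symbol from the genes counted in mouse embryonic fibroblasts (MEF cells). Each of the 35 symbols matched 1 of the 54842 genes, and all 35 were among the 28536 genes that passed the filter on low counts. The members encode the centromeric histone CENP-A and its deposition factors (4 genes), the centromere DNA binding protein CENP-B (1), the constitutive centromere-associated network (13), the Mis12 complex (4), the Knl1 complex (2), the Ndc80 complex (4), a motor and a large coiled-coil protein of the outer corona (2), the Zwilch and Zw10 subunits of the Rod-Zwilch-Zw10 complex (2) and the Ska complex (3).

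Total RNA was sequenced from 36 libraries of 2 MEF lines, MSR-dCas9-Control and MSR-dCas9-Activator, with 3 replicates at each of 6 time points. Both lines carried a doxycycline-inducible, catalytically dead Cas9 and a constantly expressed guide RNA against the major satellite repeats (MSR) of pericentric heterochromatin, and in the Activator line the dead Cas9 was fused to the transcriptional activator VPR. Both are stable lines kept as mixed cultures and not single clones. Cells were uninduced, induced with 10 ng/ml doxycycline (24 h for Control, 6 h for Activator), or collected 3, 6, 12 and 24 h into a chase in fresh medium without it, so the lines differed in the length of induction as well as in the effector, and these cannot be told apart. In bulk RNA, fewer cells in the division phases that express a gene and less of its RNA per cell cannot be told apart either. By flow cytometry, the study reports apoptosis and cell death in most Activator cells by the end of the chase, while Control cells stayed viable. The part of dying cells in the results, above all in those of the last time point, was not tested.

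The kinetochore is built on the centromere in layers. CENP-A nucleosomes, placed with the help of the chaperone HJURP and the Mis18 proteins, are bound by the constitutive centromere-associated network, which is present through the cell cycle. At mitosis the Knl1, Mis12 and Ndc80 complexes are recruited on top of it and hold the ends of spindle microtubules, with the Ska complex strengthening the grip and the corona proteins and the Rod-Zwilch-Zw10 complex serving capture of microtubules and checkpoint signalling. Many of these genes are transcribed mainly in dividing cells, late in the cell cycle.

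The libraries held from 27376846 to 57371803 gene counts. Normalised counts of the major satellite GSAT_MM had medians between 1013 and 1918 at the 6 time points of the Control line, 3888 in uninduced Activator cells, 150975 after induction and 791288 at 12 h. The Activator libraries of 1 time point differed widely in it, with 150975, 99819 and 1064392 after induction and 337991, 791288 and 1996162 at 12 h, and replicate 1 was the lowest of the 3, 6 and 12 h libraries. The second satellite family, SYNREP_MM, was instead lowest in replicate 2 of the Activator line at every time from induction on, with 10659 at 24 h against 57140 and 32645 in the other two libraries. Member calls shifted when Activator libraries of replicate 2 were left out, and those values stand beside the results. Fibroblast markers summed to between 12238 and 35394 CPM (counts scaled to a common library total) in the Activator line and 22014 to 34988 in the Control line, with Thy1 under 1 in all libraries. Of the 10 fibroblast markers tested, 6 were lower and 3 higher in Activator cells at 12 h, against 34.1% and 41.1% of all genes. Endothelial markers summed to at most 2.07 CPM in Control and 43.1 in Activator libraries, the defining Cdh5 staying under 1 throughout. Of the 4 tested, 1 was higher in uninduced Activator cells, and 3 were higher after induction and at 3 h and 6 h. All 4, Cdh5 included, were higher at 12 h and 24 h, with a median log2 fold change of 4.197 at 12 h. Blood cell markers summed to at most 0.365 and 6.30 CPM, with Hbb-bs at 0 in every library. The 2 tested were higher at every time from induction on, with a median of 5.277 at 12 h. Muscle and fat markers summed to at most 1.56 CPM in Control and 7.32 in Activator libraries, with Myod1, Myog and Plin1 under 1 throughout, and the 4 tested were higher at every time from induction on, with a median log2 fold change of 6.48 at 12 h. Pluripotent cell markers summed to at most 1.12 and 3.38 CPM, with Zfp42 under 1, and 2 of the 3 tested were higher at these times, with a median of 3.89 at 12 h, while the other was lower at 3 h. Epithelial markers summed to at most 1.79 and 4.64 CPM, with Epcam, Krt18 and Krt5 under 1. Of the 4 tested, 1 or 2 were higher at each time, and 1 was lower at 3 h. The part of these markers in the results was not tested.

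Before induction no member was called different between the lines, and after it the members moved from a mixed picture to a mostly lower one. At 24 h after doxycycline removal 25 of the 35 were lower in Activator than in Control cells and 2 were higher. The lowest values against Control were those of Knl1, the microtubule-binding scaffold, at 12 h with a log2 fold change of -2.13, and of the network subunit Cenpi with -1.91. A change here is a log2 fold change of normalised counts, Activator over Control, called where the p of edgeR's quasi-likelihood test, adjusted by Benjamini-Hochberg over all genes tested, was under 0.05.

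In uninduced cells 0 members were called in either direction (5 had an unadjusted p under 0.05, and DESeq2 called 1 lower and 0 higher), where 0.343% of all genes were called lower and 0.883% higher. Smaller differences were present before induction all the same: the Activator libraries lay wholly below the Control libraries for 7 members (Mis18a, Cenpi, Cenpk, Knl1, Zwilch, Zw10 and Ska1), against 7.93% of all genes, and wholly above for 1 (Cenpp), against 8.58%. The median member stood at -0.12 and the median gene at 0.03. After induction 8 members were lower and 7 higher, against 25.5% and 31.7% of all genes. The 3 h libraries gave 10 lower and 17 higher, against 31.4% and 39.6%, those of 6 h gave 15 and 11, against 33.3% and 40.8%, and those of 12 h gave 19 and 6, against 34.1% and 41.1%. At 24 h the 25 lower members (71.4%) stood against 29.4% of all genes, and the 2 higher members (5.71%) against 34.5%. Thus up to 3 h the share of members called lower was close to that of all genes, and the distance between the 2 shares was widest at 24 h.

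**Figure D1:**
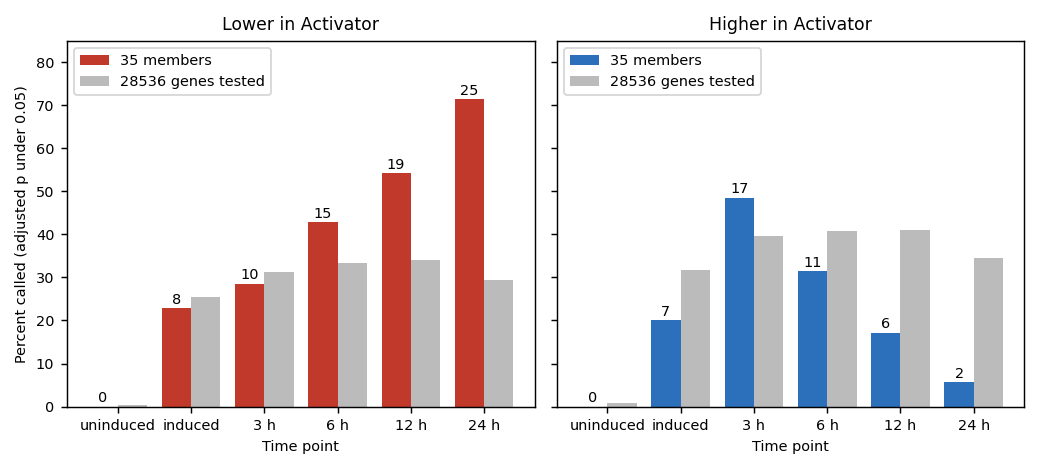
Percent of the 35 members (coloured bars, the number of members above each) and of the 28536 genes tested (grey) called lower (left) or higher (right) in Activator than in Control cells at each time point, at an adjusted p under 0.05. The lower share of members rises from 0 to 25 of 35 while that of all genes stays between 25.5% and 34.1% from induction on; under mitochondrial scaling the higher calls at 3 h drop from 17 to 0.

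These splits depended on the scaling. With the counts scaled to the 13 mitochondrially encoded mRNAs in place of TMM, the median of all genes moved from 0.12 to -0.49 at 12 h, and the members called lower and higher were, in order from induction to 24 h, 16 and 1, 18 and 0, 30 and 0, 28 and 1, and 28 and 0. With DESeq2 size factors they were 7 and 11, 8 and 18, 10 and 16, 14 and 11, and 22 and 2. Shares of all genes called are given here for TMM alone, with all 36 libraries. Under other scalings the member counts, here and below, have no such share beside them. With mitochondrial scaling the median of all genes was, in the same order, -0.25, -0.44, -0.58, -0.49 and -0.18, so genes in general shifted lower. Relative to the median of all genes the scaling made little difference. The median member less the median gene was, on the log2 scale and in the same order, -0.01, 0.07, -0.12, -0.38 and -0.58, and with mitochondrial scaling the 12 h and 24 h values were -0.39 and -0.58. Under all of 4 scalings (TMM, DESeq2 size factors, library size and mitochondrial mRNAs) 7, 8, 10, 14 and 22 members were called lower at these times, and 1, 0, 0, 1 and 0 were called higher.

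Without Activator replicate 2 the members called lower and higher were 7 and 11 after induction, then 8 and 17, 10 and 16, 15 and 11, and 25 and 4. Without Control replicate 1 the 24 h count of higher members was 1. With a mean normalised count over 100 and more than a 2-fold change required as well, 1, 3, 5, 8 and 8 members were lower at the 5 times from induction on, against 5.71%, 9.45%, 10.3%, 10.9% and 4.12% of all genes, and 0 were higher.

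**Figure D2:**
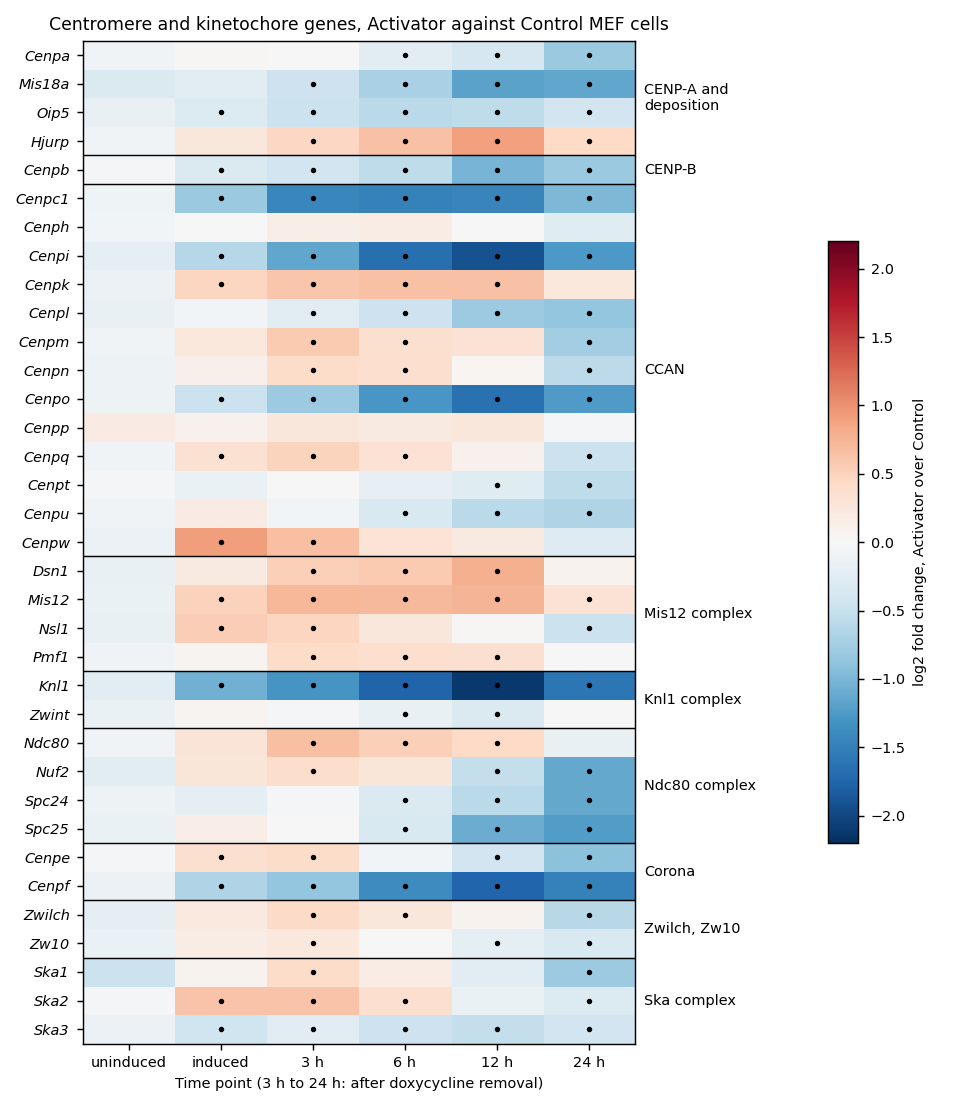
Log2 fold change of each of the 35 members (rows, by role) in Activator over Control cells at the 6 time points (columns), with blue for lower, red for higher and a dot where the adjusted p was under 0.05. Knl1, Cenpi, Cenpo, Cenpc1 and Cenpf are blue from induction on, and rows such as Nuf2, Cenpe, Zw10, Cenpm and Zwilch carry a dot for lower only at 12 h or 24 h; the red of the early columns is for TMM-normalised counts, and with mitochondrial scaling 0 members were called higher at 3 h.

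The members fell into courses by their calls over the 5 times from induction on. Called lower at all 5 were 8: Oip5, Cenpb, Cenpc1, Cenpi, Cenpo, Knl1, Cenpf and Ska3. All but Oip5 and Ska3, that is 6 genes, were so under each of the 4 scalings. A further 8 were lower at some times and higher at none: Cenpa, Mis18a, Cenpl, Cenpt, Cenpu, Zwint, Spc24 and Spc25. Another set of 10 was first higher and later lower: Cenpm, Cenpn, Cenpq, Nsl1, Nuf2, Cenpe, Zwilch, Zw10, Ska1 and Ska2, the early rise of which was not called under mitochondrial scaling. Mis12 was higher at all 5 times, Hjurp, Cenpk, Cenpw, Dsn1, Pmf1 and Ndc80 were higher at some and lower at none, and 2, Cenph and Cenpp, were not called at any time. Of these higher calls 1 at induction, that of Cenpw, and 1 at 12 h, that of Hjurp, held under all 4 scalings.

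Promoter sequence was looked at by these courses, which were sorted from the members' own calls. The motifs searched, on both strands, were the CHR element (TTTGAA or TTCGAA), at which the DREAM and MuvB complexes act on late cell cycle genes, the CCAAT box of NF-Y, and the E2F site (TTTGGCGC, TTTCCCGC, TTTCGCGC or TTTGCCGC), counting overlapping matches. RefSeq windows on GRCm38.p6 from 250 bases before to 50 bases after the start were found for 31 of the 35 members. A CHR element was in 15 of the 31 (48.4%) and in 18.4% of the 20583 windows of all genes, a CCAAT box in 20 (64.5%) against 38.2%, an E2F site in 5 (16.1%) against 2.64%, and a CHR element together with a CCAAT box in 10 (32.3%) against 7.33%. By course, the CHR element was in 4 of the 8 members lower at all 5 times, in 4 of 7 with a window that were lower at some times, in 3 of 7 that were higher and then lower, and in 4 of 6 that were higher at some times and never lower. It was thus in promoters of members with opposite courses on TMM-normalised counts. Of the higher calls, that of Cenpw after induction and that of Hjurp at 12 h held under all 4 scalings. The 4 windows below are of members with a CHR element just after the start and different courses, Knl1 (chr2:119046869-119047168, + strand) and Cenpf (chr1:189688037-189688336, - strand) being lower throughout, Spc25 (chr2:69206164-69206463, - strand) lower from 6 h and Hjurp (chr1:88277530-88277829, - strand) higher from 3 h on TMM-normalised counts. They are written 5′ to 3′ with matches to any of the motifs in capitals, and the CHR element begins at base 32, 3, 25 and 20 from the start, respectively.
Knl1: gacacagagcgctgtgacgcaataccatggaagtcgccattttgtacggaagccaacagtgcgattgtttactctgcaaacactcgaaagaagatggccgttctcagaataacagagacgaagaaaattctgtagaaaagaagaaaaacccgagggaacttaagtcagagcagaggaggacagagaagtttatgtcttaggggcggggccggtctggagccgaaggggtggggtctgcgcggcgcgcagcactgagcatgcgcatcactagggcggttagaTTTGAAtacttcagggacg
Cenpf: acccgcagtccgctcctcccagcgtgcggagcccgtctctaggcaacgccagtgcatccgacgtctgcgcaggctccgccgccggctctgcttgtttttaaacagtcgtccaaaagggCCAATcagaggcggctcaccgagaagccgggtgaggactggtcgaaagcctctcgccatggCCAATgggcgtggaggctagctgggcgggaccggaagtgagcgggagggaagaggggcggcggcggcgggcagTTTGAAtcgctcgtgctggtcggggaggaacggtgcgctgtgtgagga
Spc25: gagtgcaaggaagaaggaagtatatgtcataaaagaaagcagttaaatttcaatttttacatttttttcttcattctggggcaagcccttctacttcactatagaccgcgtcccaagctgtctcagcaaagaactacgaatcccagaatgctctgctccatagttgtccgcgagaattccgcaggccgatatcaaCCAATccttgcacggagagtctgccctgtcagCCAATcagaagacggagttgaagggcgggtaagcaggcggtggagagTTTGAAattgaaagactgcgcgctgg
Hjurp: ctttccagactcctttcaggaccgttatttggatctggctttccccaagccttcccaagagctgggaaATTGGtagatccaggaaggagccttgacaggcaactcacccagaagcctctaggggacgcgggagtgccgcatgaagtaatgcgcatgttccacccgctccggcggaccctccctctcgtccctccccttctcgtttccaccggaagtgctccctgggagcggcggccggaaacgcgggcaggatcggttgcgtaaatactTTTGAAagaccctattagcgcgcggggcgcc

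A match is a description of these letters and not a site shown to be bound. In the Cenpf and Spc25 windows a pair of CCAAT boxes lies before the CHR element, in that of Hjurp 1 CCAAT box lies far from it on the other strand, and in that of Knl1 there is none.

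Among CENP-A and its deposition factors, 3 of 4 were lower and 1 higher at both 12 h and 24 h. Of all genes 34.1% were lower and 41.1% higher at 12 h, and 29.4% and 34.5% at 24 h. Cenpa, which encodes the centromeric histone itself, had normalised counts of 4459, 4897 and 4516 in the Control libraries at 12 h and 3954, 2982 and 3872 in the Activator libraries. The log2 fold change at 12 h was -0.36 ± 0.10 (SE, n = 3 per group, adjusted p = 0.002, edgeR's quasi-likelihood test, adjusted by Benjamini-Hochberg). Its groups did not overlap, but without Activator replicate 2 the value was -0.17 and no longer called. With DESeq2 size factors the value was -0.15, and the call did not hold under all 4 scalings. At 24 h the Control libraries had 4228, 4086 and 4173 and the Activator libraries 2483, 2229 and 2418. The fall of Cenpa was then clear of the spread, at -0.81 ± 0.10, and each Activator library was below each Control library.

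Mis18a, a subunit of the complex that primes centromeres for new CENP-A, stood further below Control, and was at -0.32 already before induction. The Control libraries had 831, 824 and 777 at 12 h and the Activator libraries 394, 315 and 366, a difference of -1.18 ± 0.13 (adjusted p = 5.6e-09, edgeR). Its difference at 24 h was -1.14 ± 0.13, and between 12 h and 24 h the Activator line changed by 0.00 ± 0.13. Oip5, the partner of Mis18a, had -0.56 ± 0.12 at 12 h and -0.42 ± 0.12 at 24 h, and its exons overlap those of Nusap1 on the other strand.

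Hjurp, the chaperone that places CENP-A, went the other way. It had 17153, 17184 and 15916 in the Control libraries at 12 h and 34502, 26331 and 34039 in the Activator libraries. Each Activator library was above each Control library, and the difference of 0.91 ± 0.13 (adjusted p = 2.5e-07, edgeR) kept its sign and call under the 4 scalings, with 0.28 as the smallest. At 24 h Activator replicates 1 and 3 had 29168 and 26442, but replicate 2, at 16288, was below the 3 Control libraries (18525, 17299 and 17016). The 24 h difference of Hjurp was 0.43 ± 0.13, and it was 0.24 and not called with mitochondrial scaling. Earlier, the sign turned with that scaling: at 3 h the value was 0.46 with TMM and -0.14 with mitochondrial mRNAs. Per length, Hjurp and Zwint were the most abundant members in uninduced Control cells, at 43.9 ± 4.13 and 45.7 ± 3.30 CPM per kilobase of annotated exon, a level per length (SD, n = 3), which do not differ beyond their spread, while the median member had 9.19 and Cenpp, the lowest, 1.93.

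Cenpb, whose protein binds a sequence box in minor satellite DNA, was lower at all 5 times. The Control libraries had 4105, 4277 and 4476 at 12 h and the Activator libraries 1961, 2244 and 2112, a difference of -1.03 ± 0.10 (adjusted p = 5.9e-10, edgeR). At 24 h it had 3964, 4094 and 4354 against 1798, 3132 and 2220, with Activator replicate 2 nearest to the Control range, and the difference was -0.81 ± 0.10. Cenpb shares 20 bases of exon with Spef1 on the same strand, so a few reads may be common to both.

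The constitutive centromere-associated network was divided. Of its 13 genes 6 were lower and 1 higher at 12 h, against 34.1% and 41.1% of all genes. By 24 h 9 were lower and 0 higher, against 29.4% and 34.5%, with a median of -0.57. Cenpi, a network subunit needed for CENP-A loading, had 2397, 2477 and 2240 in the Control libraries at 12 h and 572, 743 and 572 in the Activator libraries. The difference was -1.91 ± 0.09 (adjusted p = 1e-15, edgeR), and the groups were far apart. At 24 h the Activator libraries had risen to 790, 996 and 855, by 0.48 ± 0.09 (adjusted p = 0.00031, edgeR) over 12 h, and stayed below the Control libraries (2124, 2027 and 2212).

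Cenpc1, which encodes CENP-C, the protein that links CENP-A nucleosomes to the outer kinetochore, fell early. After induction it had 2328, 2166 and 2123 in Control and 1202, 1489 and 1086 in Activator libraries, and at 3 h the difference was already -1.44 ± 0.09. The 6 h and 12 h values were -1.49 ± 0.10 and -1.44 ± 0.09, with 12 h counts of 2545, 2409 and 2139 against 799, 996 and 817, and by 24 h it was back to -0.996 ± 0.09. Cenpo fell more gradually, with -0.47 ± 0.10 after induction, -0.80 at 3 h and -1.28 at 6 h. It stood at -1.64 ± 0.11 and -1.24 ± 0.10 by 12 h and 24 h, and its exons overlap those of Adcy3 and Ptrhd1 on the other strand.

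Other network subunits followed several courses. Cenph had 486, 461 and 438 in the Control libraries at 12 h and 629, 279 and 514 in the Activator libraries, which lie on both sides of the Control range. Its value of -0.01 ± 0.17 turned to 0.20 with DESeq2 size factors, and neither was called. Cenpk had 494, 517 and 441 against 901, 557 and 859 at 12 h, a difference of 0.65 ± 0.16 (adjusted p = 0.00058, edgeR) that was 0.02 and not called with mitochondrial scaling. At 24 h it had 523, 445 and 446 against 770, 380 and 542, and its groups overlapped. Cenpm was 0.57 ± 0.16 at 3 h, with -0.03 under mitochondrial scaling, and -0.77 ± 0.16 at 24 h. Cenpw, a histone-fold subunit, had the largest positive difference of the members after induction, 0.92 ± 0.16. Its counts were 505, 594 and 608 in Control and 1305, 812 and 1152 in Activator libraries.

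**Figure D3:**
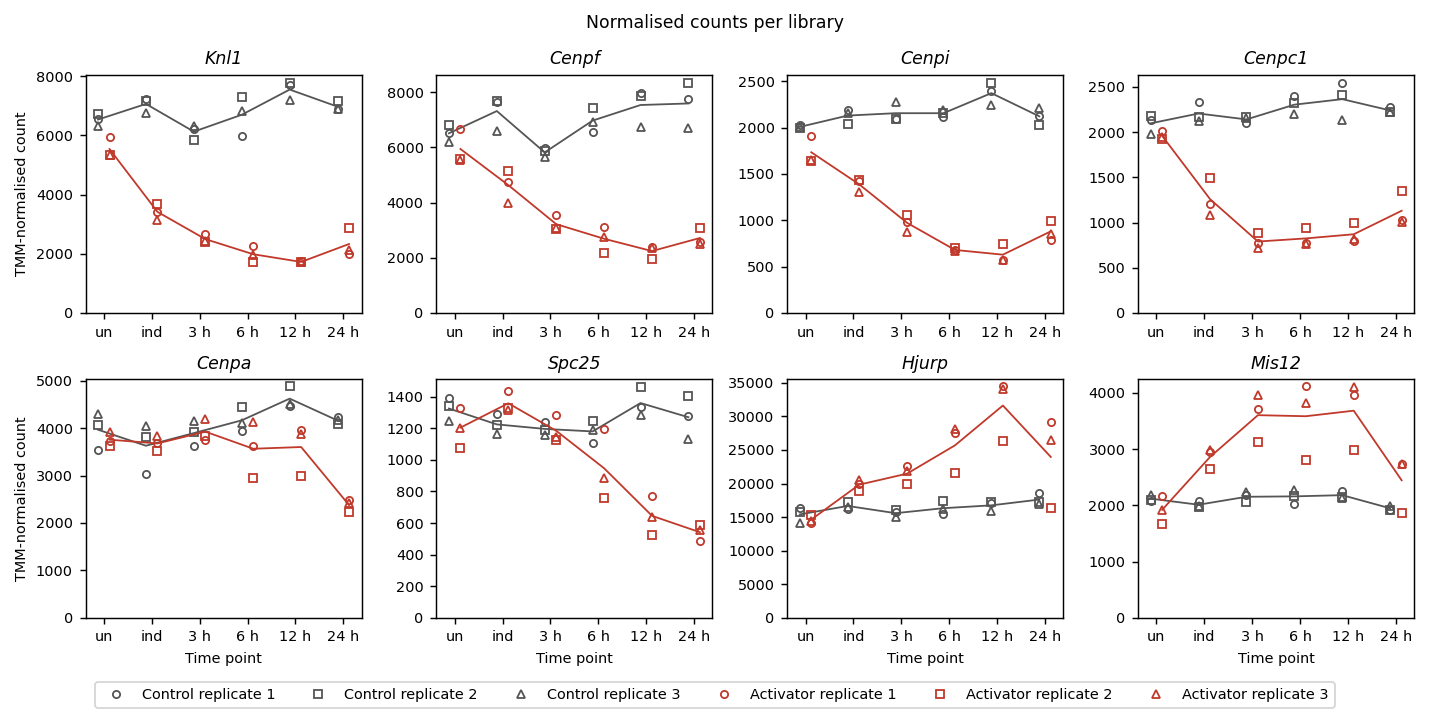
TMM-normalised counts per library of 8 members at the 6 time points (un, uninduced; ind, induced), with circles, squares and triangles for replicates 1, 2 and 3, grey for Control, red for Activator, and lines through the means of 3 libraries. In Activator cells Knl1, Cenpf and Cenpi fall from induction on and turn up at 24 h, and Cenpc1 is lowest at 3 h. Cenpa and Spc25 fall later. Hjurp and Mis12 rise on this scale, with replicate 2 the lowest Activator library of both from induction on. With mitochondrial scaling the 3 h difference of Hjurp was -0.14.

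The Mis12 complex, the platform that joins the inner to the outer kinetochore, held 3 of the 6 higher calls at 12 h. All 4 were higher at 3 h and 3 of 4 by 12 h on TMM-normalised counts, against 39.6% and 41.1% of all genes. Under mitochondrial scaling 0 of them were. Dsn1 had 1950, 1903 and 1803 in the Control libraries at 12 h and 3099, 3210 and 3432 in the Activator libraries. The groups lay well apart, with a difference of 0.78 ± 0.12 (adjusted p = 1.5e-06, edgeR), which was 0.17 with mitochondrial scaling. At 24 h Dsn1 had 2588, 1436 and 2296 in Activator libraries against 2087, 2037 and 1867, and replicate 2 was below the Control range. Mis12 had 2260, 2153 and 2133 against 3969, 2988 and 4098 at 12 h, a difference of 0.74 ± 0.10 and 0.12 with mitochondrial scaling. Nsl1 had 927, 923 and 862 against 1001, 843 and 907 at 12 h, overlapping groups, and at 24 h 835, 782 and 759 against 680, 492 and 546, a difference of -0.47 ± 0.13 that was -0.34 and not called without Activator replicate 3. From 12 h to 24 h 4 of 4 fell in the Activator line on TMM-normalised counts, against 19.5% of all genes. The median change was -0.61. With mitochondrial scaling 4 of the 35 members fell between these times, in place of 20.

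Knl1, the scaffold that binds microtubules and recruits checkpoint proteins, stood lowest of the members against Control at 12 h and at 24 h. Before induction it was at -0.24, with groups that did not overlap. At 12 h the Control libraries had 7697, 7757 and 7199 and the Activator libraries 1753, 1711 and 1712. The difference of -2.13 ± 0.11 (adjusted p = 1.3e-15, edgeR) is far outside the spread in either group. It built up from -1.05 ± 0.10 after induction through -1.30 ± 0.10 in the 3 h and -1.75 ± 0.11 in the 6 h libraries. At 24 h the Control libraries had 6889, 7152 and 6879 and the Activator libraries 1984, 2889 and 2120, with replicate 2 the highest of them. Zwint, the other member of the complex, had -0.31 ± 0.07 at 12 h and 0.01 ± 0.07 at 24 h, so the median of these 2 genes describes neither.

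Within the Ndc80 complex, the rod that contacts the microtubule, the 4 subunits parted. Spc25 had 1335, 1461 and 1284 in the Control libraries at 12 h and 774, 527 and 635 in the Activator libraries, a difference of -1.08 ± 0.12 (adjusted p = 4.9e-09, edgeR). At 24 h the groups were further apart, with 1276, 1403 and 1131 against 487, 585 and 553 and a difference of -1.22 ± 0.12. Spc24 and Nuf2, each -1.13 ± 0.13 at 24 h, were near it, while Nuf2 at 3 h was 0.39 ± 0.13 on TMM-normalised counts and -0.22 with mitochondrial scaling. Ndc80 itself had 1964, 1962 and 1743 in Control libraries at 12 h and 3229, 1800 and 2798 in Activator libraries. Replicate 2 fell inside the Control range, and the difference was 0.44 ± 0.16 (adjusted p = 0.013, edgeR). It was -0.20 with mitochondrial scaling and lost its call without Control replicate 1, at 0.37. At 24 h Ndc80 was not called, with 2090, 1991 and 1690 against 2333, 1178 and 1748.

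Of the 2 corona genes, Cenpf, a large farnesylated protein of the nuclear matrix and kinetochore, fell from induction on. It had 7981, 7877 and 6760 in the Control libraries at 12 h and 2409, 1966 and 2359 in the Activator libraries. The difference was -1.74 ± 0.11 (adjusted p = 7.3e-14, edgeR), with every Activator library below every Control library. At 24 h it had 7753, 8326 and 6708 against 2590, 3079 and 2485, a difference of -1.48 ± 0.11. Cenpe, the kinesin motor that carries chromosomes to the spindle equator, was 0.40 ± 0.13 at 3 h, with -0.21 under mitochondrial scaling, and -0.90 ± 0.13 at 24 h.

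Zw10 and Zwilch, which bring dynein to the kinetochore, and the Ska genes showed smaller differences at 12 h. Zw10 had 1413, 1467 and 1428 against 1268, 1180 and 1265 at 12 h, a difference of -0.22 ± 0.07 that was lost without any 1 of the 3 Activator libraries, with values from -0.13 to -0.10, and without Control replicate 2 or 3, at -0.18 and -0.13. At 24 h Zw10 had 1342, 1271 and 1282 against 1096, 902 and 1097, a difference of -0.33 ± 0.08. Zwilch was at -0.61 ± 0.11 at 24 h. Ska3 had 1402, 1499 and 1431 against 1046, 936 and 1036 at 12 h, a difference of -0.53 ± 0.09 (adjusted p = 3.7e-06, edgeR), and every Activator library was below the Control range. Ska1 was at -0.81 ± 0.12 and Ska2 at -0.30 ± 0.09 at 24 h, but Ska1 had stood at -0.47 ± 0.12 before induction, with groups that did not overlap. The change from uninduced to 24 h differed between the lines by -0.34 ± 0.17 for Ska1, -0.26 ± 0.13 for Ska2 and -0.28 ± 0.12 for Ska3, and did not pass the test (adjusted p between 0.071 and 0.132 by edgeR's quasi-likelihood test).

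At 24 h the groups did not overlap for the 25 lower members, the same 25 genes that were called, against 28.8% of all genes with all 3 Activator libraries below all 3 Control libraries. The 3 members with the lowest values against Control were Knl1, Cenpf and Cenpi. Those with the largest positive values were Hjurp, Mis12 (1922, 1926 and 1996 against 2738, 1866 and 2736) and Cenpk, and in each of these 3 Activator replicate 2 was below the Control range. Without that library Dsn1 and Cenpk were called higher as well, at 0.30 and 0.40, and without Control replicate 1 Mis12 was not called, at 0.26.

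Within the Activator line, 6 members were lower and 19 higher after induction than in uninduced cells, against 28.0% and 32.9% of all genes, and 15 and 0 under mitochondrial scaling. At 24 h 20 were lower and 4 higher than in uninduced cells, against 28.5% and 34.3%, and 24 and 1 under mitochondrial scaling. Between 12 h and 24 h 20 fell and 6 rose, against 19.5% and 17.5%, but with mitochondrial scaling 4 fell and 6 rose, with library size alone 12 and 8, and without replicate 3 8 and 0. The 6 that rose under TMM were Cenpc1, Cenpi, Cenpo, Knl1, Zwint and Cenpf, 5 of which had been lower at all times from induction on. In the Control line 1 member was called over the 5 comparisons with uninduced cells, Ska3 at 12 h with 0.34 ± 0.09, and 0.214%, 0.550%, 0.403%, 1.05% and 0.788% of all genes were called after induction and at 3, 6, 12 and 24 h.

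The change from uninduced to 24 h differed between the lines in 20 members, 18 with a lower change in the Activator line and 2 with a higher one, against 18.7% and 14.4% of all genes (interaction term, edgeR's quasi-likelihood test, adjusted by Benjamini-Hochberg). With mitochondrial scaling these were 20 and 0, and without replicate 3, 8 and 0. Cenpf differed by -1.35 ± 0.15, Knl1 by -1.34 ± 0.14 and Cenpo by -1.13 ± 0.15.

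Other genes of the same pathway, in lists of 20 further centromere and kinetochore genes and 12 spindle checkpoint and chromosomal passenger genes, were mostly lower at 24 h. For comparison, 34.1% of all genes were lower and 41.1% higher at 12 h, and 29.4% and 34.5% at 24 h. Of the 20, 13 were lower and 1 higher at 12 h, and 16 and 1 by 24 h, with medians of -0.49 and -0.68. Sgo2a, a protector of cohesin, and the kinesin Kif18a had the largest differences at 12 h, -2.28 and -2.12. Of the 12, 8 were lower and 2 higher at 12 h, and 9 and 1 by 24 h, with medians of -0.78 and -0.99, led at 12 h by the checkpoint kinase Ttk (-1.63) and the passenger scaffold Incenp (-1.42). With mitochondrial scaling 16 of the 20 and 11 of the 12 were lower and 0 higher at 24 h.

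Genes of cell division outside the kinetochore were also mostly lower by 24 h. Of 15 G2/M reference genes the 3, 12 and 24 h comparisons called 2, 7 and 13 lower and 11, 3 and 0 higher, and of 15 G1/S genes 3, 7 and 11 lower and 8, 2 and 0 higher. The shares of all genes were 31.4%, 34.1% and 29.4% lower and 39.6%, 41.1% and 34.5% higher. The higher calls of the 3 h comparison were 0 in both lists with mitochondrial scaling. Less the median of all genes, the median G2/M gene stood at 0.31, -0.31 and -0.79 at these times, and the median member at 0.07, -0.38 and -0.58. Of 17 cell cycle transcription regulators 12 were lower and 4 higher at 12 h, against 34.1% and 41.1% of all genes. Among them Cdkn1a, the inhibitor p21, had 12 h and 24 h values of 2.76 ± 0.24 and 2.74 ± 0.24, Mybl2 at -1.16 ± 0.11 and -0.95 ± 0.11, and Foxm1 at -0.75 ± 0.08 and -0.58 ± 0.08. The part of a changed share of dividing cells, or of dying cells, in the members' values was not tested.

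**Figure D4:**
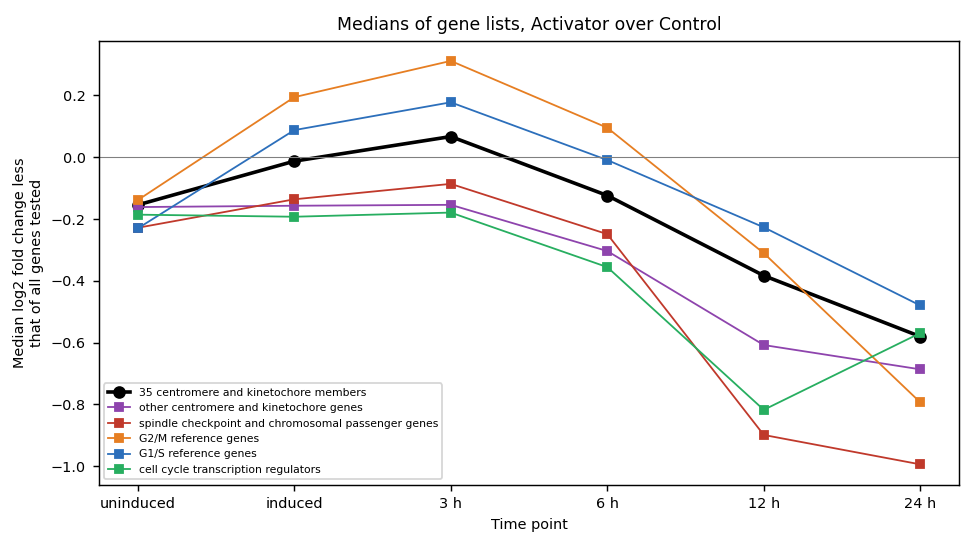
Median log2 fold change in Activator over Control cells, less the median of all genes tested, for the 35 members (black) and 5 other gene lists at the 6 time points. The members pass from 0.07 at 3 h to -0.58 at 24 h, between the G1/S and the spindle checkpoint genes, and relative to all genes these values are -0.58 at 24 h under mitochondrial scaling as well.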

How the data were processed

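RNA was measured in 36 libraries, 12 groups of 3 replicates. The deposited values are raw counts per gene and repeat family, which the authors made with TEtranscripts from trimmed read pairs mapped by STAR on GRCm38. The annotation release, the sharing of multi-mapped reads and the strand setting are not given in the sources used here, so reads of genes with overlapping exons may be shared. Nothing in the labels ties replicates to separate cultures. The study calls them biological and gives n = 3 independent experiments for this time course. The p-values measure the spread between these libraries. Pairs of replicates differed by more than sampling noise, with a chi-square per degree of freedom of at least 16.1.

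Genes (GENCODE M21 symbols; 1 unnamed entry, at most 0.00452% of counts, was left out) were filtered with filterByExpr, scaled by TMM and fitted in edgeR 4.0.16 (R 4.3.3, limma 3.58.1) with group and replicate number over all libraries, using the robust quasi-likelihood test. A call needed an adjusted p under 0.05 (Benjamini-Hochberg over 28536 genes). SE was taken as the size of the log2 fold change over the root of the F statistic. DESeq2 1.42.0, other scalings, other filters, fits without the replicate number or with 6 libraries, and leaving out libraries were alternatives. The scripts were tested on simulated data. Depth ranged from 27376846 to 57371803 gene counts per library.

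Members and lists were chosen with earlier results of these data known. Every member was counted. Values per library were given for the member of each role with the largest difference at 12 h, in roles of at least 4 also the smallest. They were also given for Cenpa, Cenpb and Cenpc1, and for the 3 highest and 3 lowest log2 fold changes at 24 h. Cenpw was added after its values were seen. Other lists are given by counts and at most their 2 largest differences. The MSR-dCas9-Repressor line was not analysed here.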

Additional observations from a re-analysis of the deposited data

Results flagged for a closer look

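The change from uninduced cells to 24 h after doxycycline removal differed between the Activator and the Control line for 18 members with a lower and 2 with a higher change in the Activator line, by the interaction term in edgeR's quasi-likelihood test, adjusted by Benjamini-Hochberg, against 18.7% and 14.4% of all genes. Among the members given by library, the differences in log2 change (Activator less Control) were -1.35 for Cenpf, -1.34 for Knl1, -1.08 for Spc25, -1.06 for Cenpi, -0.90 for Cenpc1, -0.83 for Mis18a, -0.77 for Cenpb and -0.73 for Cenpa, and 0.46 for Mis12 and 0.50 for Hjurp. The 2 positive ones were not called with mitochondrial scaling, where 0 members were higher. Dixon's test for a single library far from the rest was not run, since each group has 3 libraries.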

How the results depend on the processing

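Median differences relative to all genes held their size under every scaling, while counts of calls moved with it. With mitochondrial scaling members lower and higher were, from induction to 24 h, 16 and 1, 18 and 0, 30 and 0, 28 and 1, and 28 and 0. The median differences were then -0.27, -0.38, -0.71, -0.88 and -0.76, against 0.09, 0.23, 0.01, -0.26 and -0.57 with TMM. Within the Activator line it gave 15 and 0 after induction, 1 higher at 24 h against uninduced, and 4 lower at 24 h against 12 h, with 0 higher for the difference in change. DESeq2 gave 17 higher at 6 h and 11 at 12 h, and a 3 h median of 0.36. Its size factors in edgeR gave 11 after induction and at 12 h, and also 0.36. Library size alone gave 7 higher at 6 h, 12 lower at 24 h against 12 h, and 1 lower in uninduced cells, as did DESeq2. The 6 libraries of a time point alone, with the replicate block, gave 7 and 12 lower at 6 h and 12 h, 1 in uninduced cells, 0 higher at 24 h and a 24 h median of -0.41. The 2-fold limit left 1, 3, 5, 8 and 8 lower and 0 higher. Without a filter the median less all genes was -0.79 at 12 h and -0.88 at 24 h. Control calls, 1 in all, were 4 with DESeq2, 2 with its size factors, 2 without a filter, 0 with mitochondrial scaling and 0 without the replicate block. The cause of these shifts was not tested, beyond the change in the median of all genes that each scaling makes.

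The replicate number was part of the fit, as in the study's design. Same-numbered libraries of the lines correlated by -0.01 to 0.18 after group means were removed, over 0.1 in 9 of 18 pairs, and 17 of 18 Control libraries correlated best with their own number. Without the replicate block 1 member was higher for the difference in change in place of 2, and counts of lower members at 12 h and 24 h were 19 and 25.

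Leaving out single libraries or replicate numbers, members lower numbered 0 to 1 in uninduced cells and, in the 6, 12 and 24 h comparisons, 9 to 15, 15 to 19 and 22 to 25. Members higher numbered, from induction to 24 h, 3 to 21, 8 to 23, 3 to 19, 3 to 13 and 0 to 6, most without replicate 2 (21, 23, 19, 13 and 6). In the Activator line they were 3 to 5 lower and 10 to 24 higher after induction, 1 to 8 higher at 24 h, and 8 to 21 lower and 0 to 4 higher at 24 h against 12 h. For the difference in change they were 8 to 16 lower and 0 to 6 higher, and 0 to 1 in the Control line. Medians ranged from 0.069 to 0.32 after induction, 0.17 to 0.50 and -0.067 to 0.27 in the 3 h and 6 h comparisons, and -0.66 to -0.36 at 24 h. Less the median of all genes, the median member ranged from -0.045 to 0.045 after induction and 0.013 to 0.11 at 3 h. At 6 h and 24 h the ranges were -0.20 to -0.070 and -0.66 to -0.55. Relative to all genes the ranges were thus narrower.

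Of 544 values for single members at 12 h and 24 h, 476 kept sign and call, 40 lost the call, 7 gained it and 21 changed sign, in Cenph, Dsn1, Nsl1 and Ndc80 alone. Cenph at 12 h turned to 0.20 with DESeq2 and its size factors, 0.017 without a filter, 0.037 without the replicate block and 0.12 in 6 libraries, with -0.22 to 0.40 on leaving libraries out. Dsn1 at 24 h turned to -0.12, Ndc80 at 12 h to -0.20 and Nsl1 at 12 h to -0.60 with mitochondrial scaling, and Nsl1 to -0.083 with library size. Leaving libraries out gave -0.064 to 0.43 for Dsn1 and -0.34 to 0.23 for Ndc80 at 24 h, and -0.025 to 0.18 for Nsl1 at 12 h.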
